A study of Mus musculus with 24 samples.

Results

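The iron and heme handling genes of the liver were followed over 4 diets in the mouse. The set names 10 genes: Hamp, Slc40a1, Tfrc, Tfr2, Trf, Fth1, Ftl1, Alas1, Alas2 and Slc39a14. They were listed by name, with earlier results of these data known. Members were the probe sets whose annotation names 1 of these genes and no other gene. This gave 8 genes with 21 probe sets, of 18194 genes with such a probe set on the array. Trf and Ftl1 are on the array only through probe sets that the annotation also assigns to other genes, so they are not reported. Of the 21 probe sets, 17 passed the filter on low signal and were tested. The 4 that did not are all Tfrc probe sets, and 3 of them are quality control probe sets of the array.

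Male BALB/c mice, obtained at 6 weeks of age, were kept on a nonpurified diet for a week and then ate a purified AIN-93G diet for 14 days. The purified diet held 0% (control), 0.1%, 0.5% or 1.0% phloridzin, a plant glucoside known from apple that inhibits sodium-dependent glucose transporters. The labels describe 6 mice per diet in cages of 3, and RNA of the whole liver was hybridised to 24 expression arrays. The mice carried no transgene or deletion, and the groups differ, as far as the labels say, in phloridzin alone. Whole liver mixes cell types, and a lower signal from fewer cells of a type cannot be told apart from less RNA per cell.

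Hepcidin, the product of Hamp, is a hormone that the liver secretes when iron is plentiful or during inflammation, and it removes the iron exporter ferroportin (Slc40a1) from cell surfaces. Iron enters liver cells with transferrin through the transferrin receptor Tfrc, or free of transferrin through the zinc and iron transporter ZIP14 (Slc39a14), and it is stored in ferritin, whose heavy chain is Fth1. Transferrin receptor 2 (Tfr2) senses the iron load of transferrin and feeds the signal to Hamp, while Alas1 and Alas2 make the first, rate-limiting step of heme synthesis in most cells and in red cell precursors.

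The 24 arrays did not hold 24 separate RNAs. Of 276 array pairs, 13 had log2 differences with an SD of 0.0436 to 0.0577, and 255 others had an SD of at least 0.164. Arrays this close, and sets of arrays that shared the same pattern over their most variable genes, were averaged and counted as 1 sample. The RNA of 0.1% replicates 1, 3 and 6 and 1.0% replicate 1 carried the labels of 2 diets and entered no comparison. The fit held 11 RNA samples, 4 on the control diet, 3 at 0.1%, 2 at 0.5% and 2 at 1.0%. Each is named here by the replicate numbers averaged in it, as in "control 1+3". The liver marker Alb (albumin) had a log2 signal of 13.41 to 13.59 in these samples. With so few samples, and no label that ties each to a mouse or a cage, p-values measure only the spread between these samples.

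Values are log2 signals after scaling all arrays to 1 distribution, where 3.00 is the floor. Differences come from limma over 27022 probe sets, are given with their standard error, and are called at a Benjamini-Hochberg adjusted p under 0.05. Levels of different probe sets are not comparable with each other.

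No member probe set was called in any comparison. Against control, limma called 1 probe set of all 27022 at 0.1% (0.00370%), 0 at 0.5% (0%) and 0 at 1.0% (0%), so the threshold was rarely passed by any gene. At an unadjusted p under 0.05, members numbered 0 of 17 at 0.1%, where 9.23% of all probe sets passed. At 0.5%, 1 of 17 passed (Alas2, lower), which is 5.88% beside 5.28% of all. At 1.0%, 3 of 17 passed, which is 17.6% beside 6.54% of all: an Slc39a14 probe set was higher, and a Tfr2 and an Alas1 probe set were lower. These 3 comparisons share the control samples. The median difference of the 17 members was -0.05 at 0.1%, -0.08 at 0.5% and 0.00 at 1.0%, and that of all probe sets was -0.01, 0.00 and -0.01. At 1.0%, 9 members lay above control and 8 below. Centring each array on its median instead turned this split to 2 above and 15 below, with the median of all probe sets at -0.15.

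**Figure D1:**
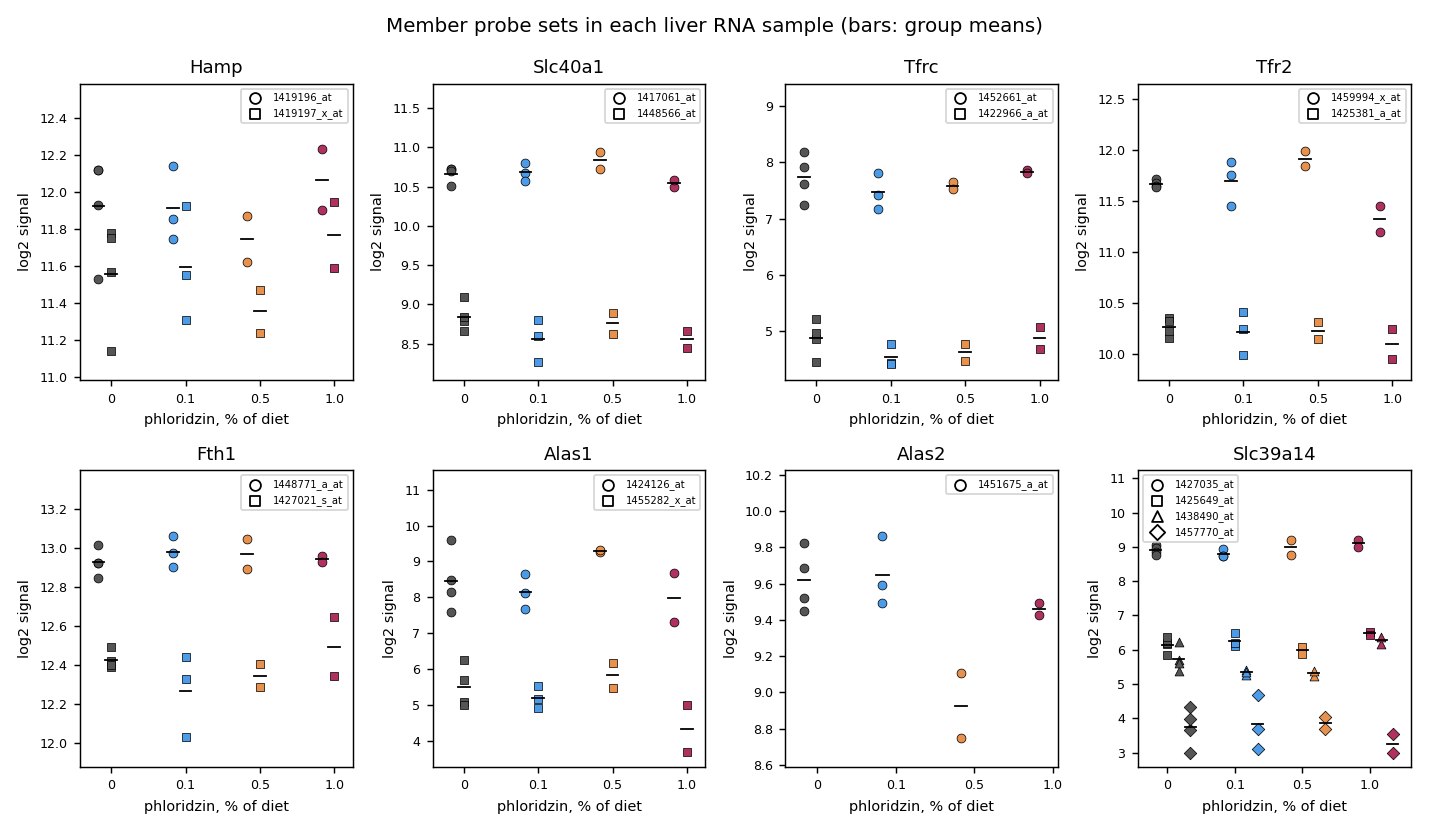
Log2 signal (vertical axis) of the 17 tested probe sets in each of the 11 RNA samples, by phloridzin in the diet (horizontal axis). Each symbol shape is 1 probe set of the gene, colours mark the diets and bars are group means. Alas2 was lowest in both samples at 0.5%, and Alas1 spread from 7.61 to 9.61 within the control diet alone (probe set 1424126_at).

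Hamp had a high signal in every sample, and no dose separated from the control diet. On probe set 1419196_at the control samples read 12.12 (1+3), 12.12 (2+4), 11.93 (5) and 11.53 (6). The 0.1% samples read 12.14, 11.86 and 11.75, the 0.5% samples 11.62 and 11.87, and the 1.0% samples 11.90 and 12.23. Control 6 was the lowest of all 11 and 1.0% replicate 4 the highest, and every dose overlapped the control diet. The order of the group means was 1.0%, control, 0.1% and 0.5%, and neighbours in this order lay within the spread of the samples. At 0.5% Hamp differed from control by -0.18 ± 0.17 (95% interval -0.53 to 0.18, adjusted p = 0.988), so a change of more than 0.53 downward or 0.18 upward lies outside the interval. The differences were -0.01 ± 0.15 at 0.1% and 0.14 ± 0.17 at 1.0%. Between doses, both 1.0% samples lay above both 0.5% samples, by 0.32 ± 0.19 (unadjusted p = 0.114, adjusted p = 1), and on the second probe set by 0.41 ± 0.22 (unadjusted p = 0.0777, adjusted p = 1). This second probe set, 1419197_x_at, followed the first with r = 0.983 (Spearman's rho 0.973, 11 samples, r = 0.970 without the 2 farthest samples). Its _x name marks probes that may match other transcripts, and the near copy Hamp2 has probe sets of its own.

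The Hamp promoter is shown because 2 motifs known from its control, by BMP and SMAD proteins when iron is high and by STAT3 in inflammation, lie close together in it. The stretch covers the 250 bases before the RefSeq start, chr7:30944030-30944279 of GRCm38.p6 on the minus strand. Capitals mark GGCGCC, a motif bound by SMAD proteins, and TTCNNNGAA, the general STAT motif.
Hamp promoter: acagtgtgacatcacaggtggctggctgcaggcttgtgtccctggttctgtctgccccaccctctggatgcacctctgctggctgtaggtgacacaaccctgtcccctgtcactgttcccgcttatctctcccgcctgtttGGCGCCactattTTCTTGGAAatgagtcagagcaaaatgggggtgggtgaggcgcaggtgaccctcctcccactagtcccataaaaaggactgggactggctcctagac
The first lies 109 to 104 bases and the second 97 to 89 bases before the start, with no overlap. On either strand, 9.59% of 32817 promoter windows of this length hold the first motif and 7.01% the second. These are matches of letters only.

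Acute phase transcripts, several of which answer to STAT3 as Hamp does, were set beside it. At 0.5%, 8 of 10 acute phase genes lay above control, with a median difference of 0.42. Of the 10, 6 had an unadjusted p under 0.05, beside 5.28% of all probe sets, though none was called. Saa2, a serum amyloid protein, read 7.53 to 8.53 in control, 13.004 and 10.15 at 0.5%, and 10.96 and 8.13 at 1.0%. Its difference at 0.5% was 3.68 ± 0.69 (adjusted p = 0.373). Orm2, a plasma carrier protein, read 10.64 in sample 1+2+3+6 of the 0.5% diet and 7.38 in sample 4+5, against 5.95 to 6.14 in control. Lcn2, which binds bacterial iron carriers, read 10.44 and 7.08 at 0.5% against 6.33 to 6.84 in control. In the sample where Saa2, Orm2 and Lcn2 were highest, Hamp was 11.62, second lowest of the 11. The summed signal of neutrophil markers in that sample was 176.0, inside the control range of 132 to 203, and it was 377 in the other 0.5% sample, 4+5.

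**Figure D2:**
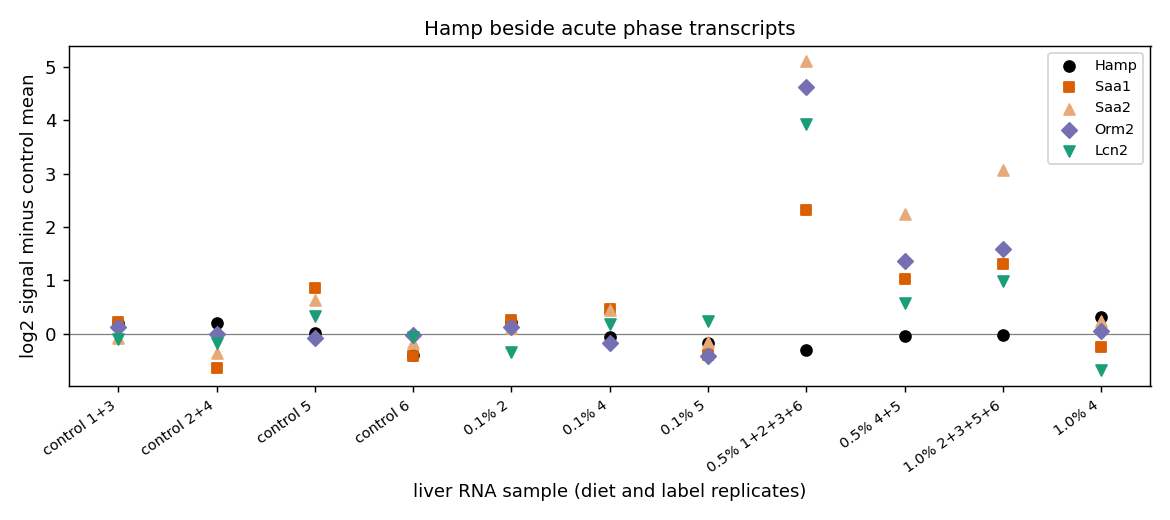
Log2 signal minus the control mean (vertical axis) of Hamp and 4 acute phase transcripts in each RNA sample (horizontal axis, named by diet and label replicates). Saa1, Saa2, Orm2 and Lcn2 stand far above zero in sample 0.5% 1+2+3+6, where Hamp lies below it.

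Genes that control Hamp were counted from a list of 19, of which 18 were tested. At 0.1%, 12 lay above control and 6 below. Of the 18, 4 had an unadjusted p under 0.05, all higher, beside 9.23% of all probe sets. At 0.5% and at 1.0%, 6 lay above and 12 below. There 1 and 2 of the 18 had an unadjusted p under 0.05, all lower, beside 5.28% and 6.54% of all. None was called. The list mixes inhibitors such as Smad7 with genes that raise Hamp, so these counts give no direction of its control. Smad7, an inhibitor of the BMP signal, differed by 1.25 ± 0.36 at 0.1% (adjusted p = 0.394), with 6.85, 6.82 and 7.86 against 6.96, 5.67, 5.51 and 5.54 in control. Creb3l3, a liver transcription factor that acts on Hamp, differed by -0.29 ± 0.10 at 1.0% (adjusted p = 0.679). Cebpa, a hepatocyte transcription factor, differed by -0.56 ± 0.17 at 0.5% (adjusted p = 0.67), and Smad4, the shared partner of SMAD proteins, by -0.31 ± 0.14 at 1.0% (adjusted p = 0.752).

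Tfr2 gave different answers on its 2 probe sets. On 1459994_x_at the control samples were close together at 11.71, 11.68, 11.65 and 11.63. The 0.1% samples read 11.75, 11.45 and 11.88, the 0.5% samples 11.84 and 11.98, and the 1.0% samples 11.19 and 11.45. Both 0.5% samples lay above all controls and both 1.0% samples below them. Within 0.5% sample 1+2+3+6, replicates 1 and 6 read 11.74 and 11.73, and replicates 2 and 3 both read 11.95. The _x in this name, as in Hamp 1419197_x_at and Alas1 1455282_x_at, marks probes that may match other transcripts. The difference from control was 0.25 ± 0.12 at 0.5% (adjusted p = 0.94), with its sign turned when no scaling was used (-0.02), and -0.34 ± 0.12 at 1.0% (unadjusted p = 0.0118, adjusted p = 0.689). The value at 1.0% ran from -0.22 to -0.47 on leaving out 1 sample. It was -0.15 with the RNA labelled for 2 diets kept under both and -0.76 with no scaling, all in the same direction. Between 1.0% and 0.5% it was -0.59 ± 0.14 (unadjusted p = 0.00073, adjusted p = 1). Probe set 1425381_a_at showed no such step, with 10.15 to 10.35 in control, 10.31 and 10.14 at 0.5% and 10.24 and 9.94 at 1.0%. Its difference between 1.0% and 0.5% was -0.14 ± 0.15. The 2 probe sets correlated with r = 0.420 over 11 samples (rho 0.433), and with r = 0.885 without the 2 samples farthest from the median of the first. Those left out are 0.5% sample 4+5 and 1.0% sample 2+3+5+6, so the disagreement rests largely on samples that make the step between these diets. Which of them reads the gene better was not tested.

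The exporter Slc40a1 varied little on probe set 1417061_at, with all 11 samples within 10.49 to 10.94. There the control samples read 10.73, 10.72, 10.69 and 10.50, and those at 0.1% read 10.81, 10.67 and 10.57. The 0.5% samples read 10.72 and 10.94, and the 1.0% samples 10.49 and 10.59. The group means ran from 0.5% through 0.1% and control to 1.0%, and each dose overlapped the control diet. The differences from control were 0.02 ± 0.10, 0.17 ± 0.11 and -0.12 ± 0.11 at the 3 doses in rising order, with adjusted p-values of 0.968, 0.982 and 0.875. The 1.0% samples lay below both 0.5% samples by 0.29 ± 0.13 (95% interval of the difference -0.57 to -0.02, unadjusted p = 0.0381, adjusted p = 1). The other probe set, 1448566_at, read 8.66 to 9.09 in control and 8.27 to 8.80 at 0.1%, a difference of -0.29 ± 0.14 (adjusted p = 0.573). Without 0.1% replicate 4, the sample at 8.27, the difference was -0.14. Probe set 1448566_at ranged by 0.82 over the 11 samples. It followed the first only loosely (r = 0.461, rho 0.591, r = 0.433 without the 2 farthest samples), and its sign at 0.5% was the opposite.

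**Figure D3:**
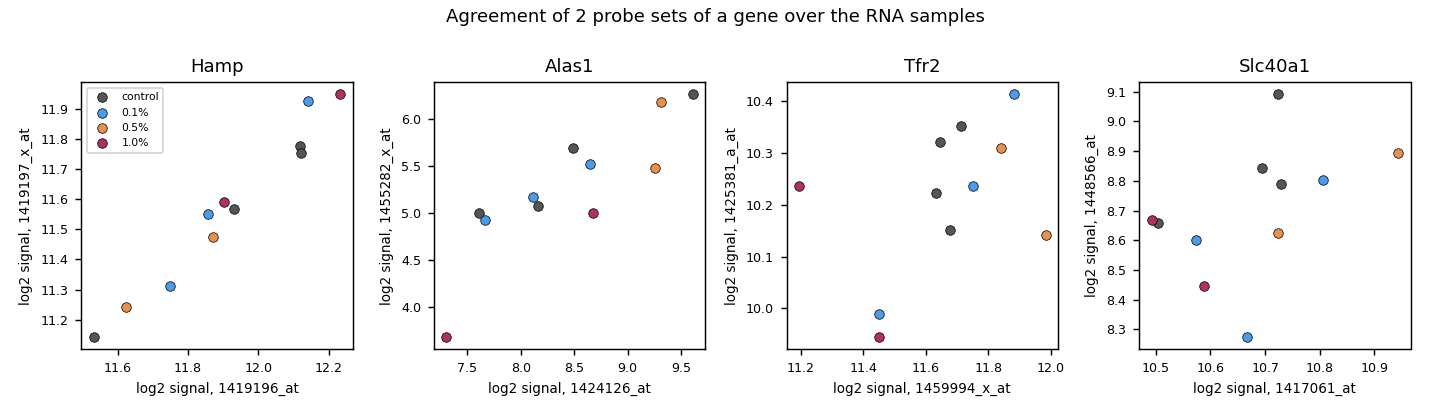
Log2 signals of 2 probe sets of each gene, 1 on each axis, over the 11 RNA samples coloured by diet. The points of Hamp and Alas1 lie along a line (r = 0.983 and 0.853), and those of Tfr2 and Slc40a1 scatter (r = 0.420 and 0.461).

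Tfrc, which carries transferrin-bound iron into cells and whose mRNA is stabilised when iron is low, spread widely within the control diet. On 1452661_at the controls read 7.61, 7.23, 8.17 and 7.91. The doses read 7.42, 7.80 and 7.17 at 0.1%, 7.65 and 7.52 at 0.5%, and 7.86 and 7.80 at 1.0%. All dosed samples but 0.1% replicate 5 lay inside the control range. The differences were -0.27 ± 0.20, -0.15 ± 0.23 and 0.10 ± 0.23 (adjusted p = 0.694, 0.988 and 0.965). The second tested probe set, 1422966_a_at, was dimmer, at 4.43 to 5.22, and followed the first (r = 0.819, rho 0.755, r = 0.667 without the 2 farthest samples). The 4 untested probe sets of Tfrc lay at or near the floor, the brightest of them at 3.00 to 4.21.

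Slc39a14 has 4 tested probe sets, and they did not all move together. The brightest, 1427035_at, read 8.75 to 9.07 in control and 8.73 to 9.21 over all samples. Its difference from control was 0.19 ± 0.14 at 1.0% (adjusted p = 0.851). Probe set 1438490_at read 6.23, 5.69, 5.39 and 5.62 in control, 5.42, 5.25 and 5.36 at 0.1%, 5.23 and 5.39 at 0.5%, and 6.18 and 6.38 at 1.0%. Only control 1+3 reached the 1.0% samples, which differed from control by 0.55 ± 0.23 (unadjusted p = 0.0336, adjusted p = 0.725). They stood above all samples in the fit of both lower doses, by 0.94 ± 0.25 over 0.1% (adjusted p = 0.2) and 0.97 ± 0.27 over 0.5% (adjusted p = 1). The RNA set aside, which carries labels of 0.1% replicates 1, 3 and 6 and 1.0% replicate 1, read 6.16. This lay near the 1.0% samples and also inside the control range. With all 24 arrays as labelled the difference from 0.1% was 0.39. On 1427035_at the RNA set aside read 8.58, below every control, against 9.21 and 8.99 at 1.0%. Probe set 1425649_at read 6.53 and 6.42 at 1.0% against 5.86 to 6.36 in control, a difference of 0.33 ± 0.20 (adjusted p = 0.796), and the fourth, 1457770_at, lay near the floor, at 3.00 to 4.67. The correlations among the 4 ran from r = -0.318 to 0.582 over the 11 samples. The highest was that of 1427035_at with 1438490_at (rho 0.645, r = 0.785 without the 2 farthest samples). That of 1427035_at with 1425649_at was r = -0.241, and -0.503 without the 2 farthest samples.

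The ferritin heavy chain Fth1, whose translation rather than mRNA level is the main point of control by iron, had nearly flat values. On 1448771_a_at the controls read 12.92, 13.01, 12.84 and 12.92, and all 11 samples lay within 12.84 to 13.06. The differences from control were 0.05 ± 0.08, 0.04 ± 0.09 and 0.02 ± 0.09, and the 95% interval at 1.0% was -0.18 to 0.21. Probe set 1427021_s_at read 12.39 to 12.49 in control, 12.03 in 0.1% replicate 4 and 12.65 in 1.0% sample 2+3+5+6. Replicate 4 of the 0.1% diet also had the widest gap between 3' and 5' actin probe sets, 2.32 against 1.31 to 1.54 in control, a sign of RNA quality whose part in this value was not tested. The 2 probe sets of Fth1 shared little (r = 0.115, rho 0.0957, r = 0.230 without the 2 farthest samples).

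**Figure D4:**
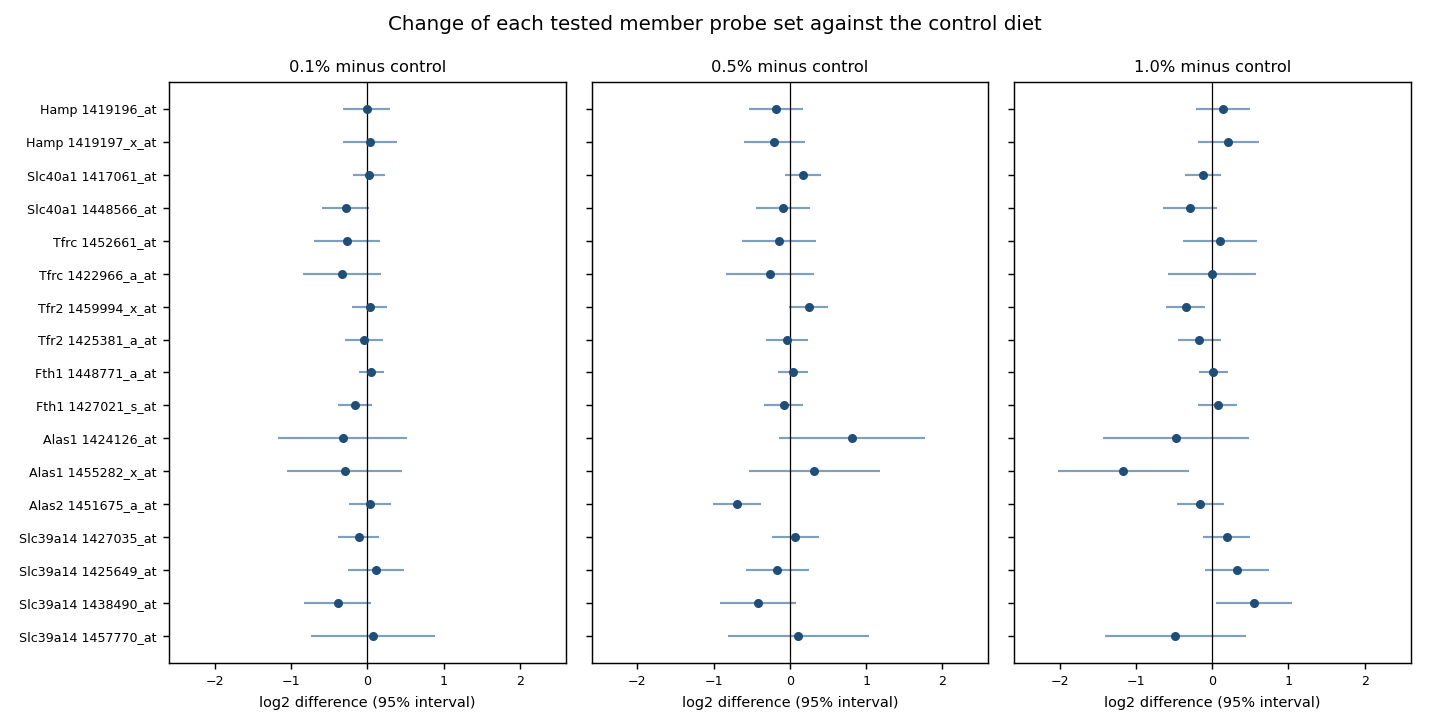
Log2 difference from the control diet (horizontal axis, with 95% intervals) of each tested member probe set at 0.1%, 0.5% and 1.0% phloridzin. Most intervals cross 0; the interval of Alas2 at 0.5% runs from -1.004 to -0.383.

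Alas2 carried the lowest p-value of any member against control. Its single probe set, 1451675_a_at, read 9.52, 9.45, 9.82 and 9.68 in control, 9.59, 9.49 and 9.86 at 0.1%, 9.11 and 8.75 at 0.5%, and 9.50 and 9.43 at 1.0%. Both 0.5% samples lay below the other 9, and the other diets overlapped one another. The difference at 0.5% was -0.69 ± 0.15 (95% interval -1.004 to -0.383, unadjusted p = 0.000278, adjusted p = 0.373). At 0.1% it was 0.03 ± 0.13 and at 1.0% -0.16 ± 0.15. The 0.5% samples also lay below those at 0.1% by 0.72 ± 0.15 (a difference of -0.72, unadjusted p = 0.000305, adjusted p = 0.233), and the 1.0% samples lay above them by 0.54 ± 0.17 (unadjusted p = 0.00628, adjusted p = 1), so the value did not follow the dose. Without 0.5% sample 4+5 the difference from control was -0.51, and without sample 1+2+3+6 it was -0.87. The call came with all 24 arrays counted as separate samples (-0.59, adjusted p = 0.00262), where repeats of 1 RNA count several times. The 3' minus 5' difference of Gapdh probe sets, another sign of RNA quality, was -0.18 in both 0.5% samples. It was -0.37 to -0.28 in control, -0.27, -0.05 and -0.26 at 0.1%, and -0.31 and -0.35 at 1.0%. The actin gap was 1.49 in 0.5% sample 1+2+3+6 and 1.78 in sample 4+5, against 1.31 to 1.54 in control. The part of RNA quality in the Alas2 difference was not tested.

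Alas2 belongs to red cell precursors and blood remains in liver samples, so erythroid markers are given beside it. Of 14 listed markers, 7 were on the array under a single gene and 4 were tested; 1 lay at the floor in every sample. The summed linear signal of the 7 was 71.3 to 93.9 in control, 80.1 to 97.7 at 0.1%, 76.3 to 82.1 at 0.5% and 78.6 to 91.9 at 1.0%. Each of the 7 adds at least the floor of 8, and the mean log2 of the 4 tested was 3.46 to 4.16. Most of the sum is therefore floor, and it is a weak measure of red cell content. At 0.5% 2 of the 4 tested lay above control and 2 below, with a median of -0.08, beside 0.00 for all probe sets. Slc4a1, the anion exchanger of red cells, and Klf1, a red cell transcription factor, read 3.87 and 3.36, and 3.79 and 3.79, at 0.5%, close to the floor. Their part in the Alas2 difference was not tested.

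The Alas2 promoter is shown because its motifs are those of red cell transcription factors. The stretch is chrX:150547167-150547416 of GRCm38.p6 on the plus strand, the 250 bases before the RefSeq start. Capitals mark AGATAA, the motif of GATA factors, and CCACCC, which KLF1 binds, each found on the opposite strand and so printed as its complement.
Alas2 promoter: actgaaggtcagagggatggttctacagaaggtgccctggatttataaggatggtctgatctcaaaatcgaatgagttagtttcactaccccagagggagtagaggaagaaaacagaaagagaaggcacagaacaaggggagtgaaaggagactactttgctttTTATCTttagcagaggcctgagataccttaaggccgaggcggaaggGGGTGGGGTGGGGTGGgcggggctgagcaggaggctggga
The GATA motif lies 86 to 81 bases before the start. The 3 CCACCC matches lie at 40 to 35, 35 to 30 and 30 to 25 bases and overlap by 1 base each. Of all windows, 9.99% hold AGATAA and 28.1% hold CCACCC on either strand. The Hamp stretch printed above also holds both motifs, not marked there, so they do not set Alas2 apart from Hamp.

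Alas1, the heme synthesis enzyme of hepatocytes, varied widely within the control diet. On 1424126_at the controls read 8.16, 8.49, 7.61 and 9.61, a 4.01-fold range. The 0.1% samples read 8.11, 8.65 and 7.67, the 0.5% samples 9.26 and 9.31, and the 1.0% samples 8.68 and 7.30. Control 6, the highest of all 11, lay above the 0.5% samples. The difference from control was 0.82 ± 0.45 at 0.5% (95% interval -0.14 to 1.77, adjusted p = 0.956) and -0.47 ± 0.45 at 1.0% (adjusted p = 0.878). The direction at 1.0% rests on replicate 4, since the difference was 0.21 without it and -1.16 without sample 2+3+5+6. The 0.5% samples stood above those at 0.1% by 1.14 ± 0.47 (unadjusted p = 0.029, adjusted p = 0.464). The second probe set, 1455282_x_at, read 5.07, 5.69, 5.01 and 6.26 in control and 5.00 and 3.68 at 1.0%, a difference of -1.17 ± 0.40 (unadjusted p = 0.011, adjusted p = 0.686). Without 1.0% replicate 4 it was -0.51, and without sample 2+3+5+6 it was -1.82, so a single sample moves it by more than 1.5 times. The 2 probe sets followed each other (r = 0.853, rho 0.782, r = 0.759 without the 2 farthest samples).

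Alas1 is driven by the circadian clock in liver, so clock transcripts were set beside it. At 0.5%, 3 of 9 clock genes lay above control and 6 below, with a median of -0.52. Beside 5.28% of all probe sets, 1 of the 9 had an unadjusted p under 0.05. This was Nr1d1, a clock repressor, at 3.56 and 5.51 against 6.46 to 6.69 in control, a difference of -2.06 ± 0.42 (adjusted p = 0.373). Dbp, a clock output factor, read 5.24 in 0.5% sample 1+2+3+6 and 10.62 in sample 4+5, where Alas1 read 9.26 and 9.31. In the controls Dbp read 9.87, 9.86, 7.93 and 7.63. At 0.1%, 6 of the 9 clock genes lay above control and 3 below, with a median of 0.22. There 2 of the 9 had an unadjusted p under 0.05, both higher, beside 9.23% of all probe sets. At 1.0%, 5 lay above and 4 below, with a median of 0.03, and 0 had such a p, beside 6.54% of all. The labels give no time of killing for each mouse, and the part of clock phase in the Alas1 values was not tested.

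Between doses no member was called, nor was any other probe set (0% in each of the 3 dose comparisons). For 1.0% against 0.5%, 7 of 17 probe sets had an unadjusted p under 0.05, which is 41.2% beside 4.29% of all, and the 7 belong to 5 genes: Slc40a1, Alas1, Slc39a14, Alas2 and Tfr2. Groups of 2 against 2 did not overlap in 11 of 17 (64.7%, beside 36.5% of all). Probe sets of 1 gene are not independent, and each group holds 2 RNA samples. The 0.5% and 1.0% samples also did not overlap in the 3' minus 5' difference of Gapdh given above. The part of RNA quality in these counts was not tested. For 0.5% against 0.1%, 2 of 17 passed the unadjusted threshold (11.8% beside 9.74%), and for 1.0% against 0.1% also 2 (11.8% beside 12.4%). The test over all 4 diets called no member, with 2 calls among all probe sets (0.00740%), and 4 of 17 passed unadjusted (23.5% beside 9.66%): Tfr2, Slc39a14, Alas1 and Alas2, 1 probe set each. The slope on percent phloridzin called no probe set (0%), and 0 of 17 members passed it unadjusted, beside 8.58% of all.

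**Figure D5:**
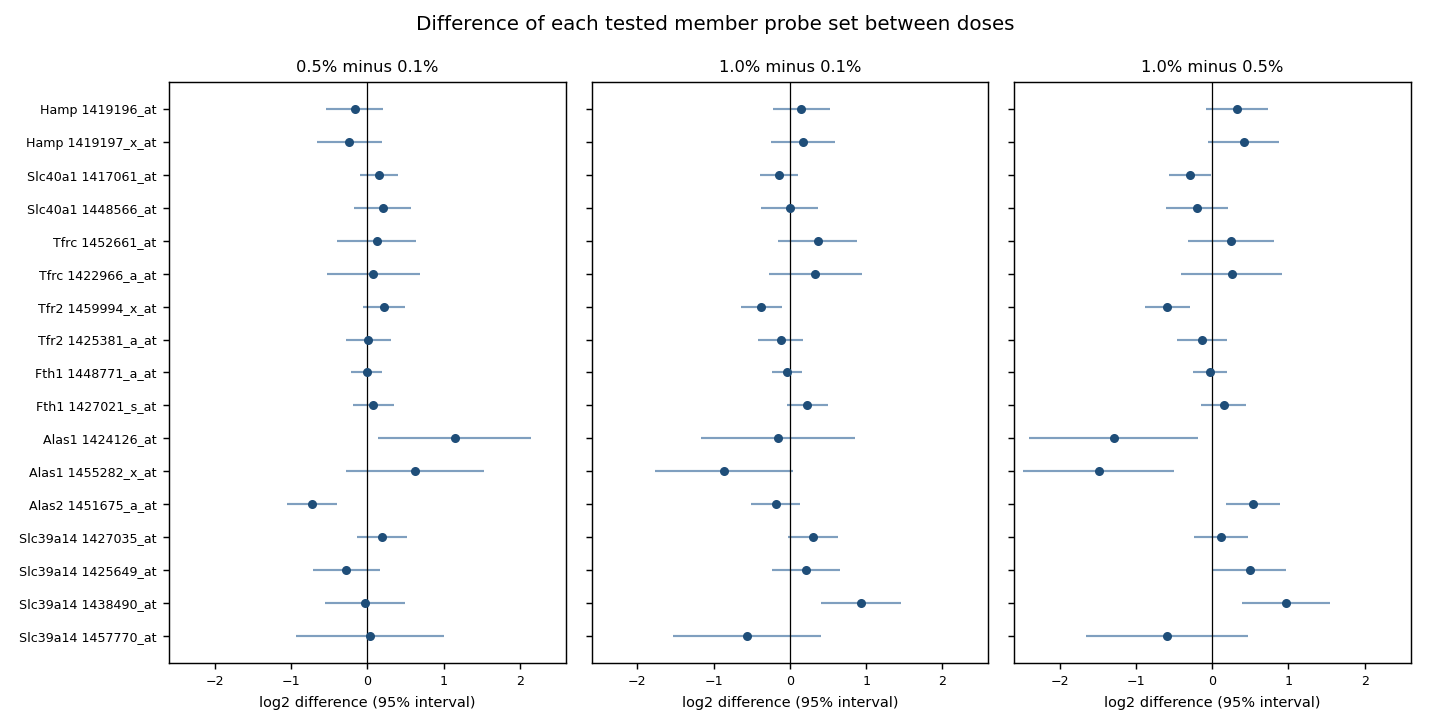
Log2 difference between doses (horizontal axis, with 95% intervals) of each tested member probe set. In the comparison of 1.0% with 0.5%, the intervals of 7 probe sets do not reach 0, those of Alas1, Alas2, Tfr2, Slc40a1 and Slc39a14.

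The groups compared with control overlapped in most members. At 0.1% no member lay wholly outside the control range (0 of 17, beside 8.50% of all 27022 probe sets). At 0.5% 3 did (17.6% beside 17.5%), Alas2 and Slc39a14 1438490_at below and Tfr2 1459994_x_at above. At 1.0% 3 did (17.6% beside 19.9%), Slc39a14 1425649_at above and the dimmer Alas1 probe set and Tfr2 1459994_x_at below. These shares are close to those of all probe sets. Between doses, groups did not overlap in 3 of 17 for 0.5% against 0.1% (17.6% beside 23.5%) and in 2 of 17 for 1.0% against 0.1% (11.8% beside 25.6%), both of them Slc39a14.

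The later steps of heme synthesis were counted from a list of 7 genes, of which 6 were measured. Against control 5, 4 and 2 of the 6 lay above at 0.1%, 0.5% and 1.0%, and none was called. Cpox, coproporphyrinogen oxidase, read 9.97 and 9.93 at 0.5% against 9.06, 9.25, 9.52 and 9.48 in control, a difference of 0.62 ± 0.21 (unadjusted p = 0.0103, adjusted p = 0.739). At 1.0% its samples split, at 8.77 and 9.78. Uros, which closes the porphyrin ring, differed by 0.34 ± 0.13 at 1.0% (adjusted p = 0.694), with 8.52 and 8.33 against 8.07 to 8.11 in control. Urod, which takes carboxyl groups off that ring, differed by 0.22 ± 0.10 at 0.1% (adjusted p = 0.534), and Ppox, the enzyme before the last step, by 0.44 ± 0.23 at 1.0% (adjusted p = 0.786).

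Genes of heme breakdown, binding and transport were all 12 measured, and 7, 5 and 2 lay above control at the 3 doses in rising order, none called. Cd163, the receptor by which macrophages take up haptoglobin-bound hemoglobin, read 5.94, 5.72 and 5.48 at 0.1% against 6.56, 6.62, 6.38 and 6.53 in control. The groups did not overlap, and the difference was -0.81 ± 0.17 (unadjusted p = 0.000282, adjusted p = 0.333). Cd163 also marks Kupffer cells, the macrophages of the liver. Of 10 tested Kupffer markers, Cd163 included, 8 lay below control at 0.1%, with a median of -0.16. An unadjusted p under 0.05 was reached by 2 of the 10, beside 9.23% of all probe sets. The summed signal of Kupffer markers was 2955, 2557 and 3262 in replicates 2, 4 and 5 against 3089 to 3622 in control. Replicate 4 was the lowest of these, and it also had the lowest summed signal of endothelial markers (1367 against 1810.5 to 1936) and the wide actin gap given above. Replicate 5, with the lowest Cd163, had a Kupffer sum inside the control range. By the mean log2 of the 10 tested Kupffer markers, which includes Cd163, replicates 2, 4 and 5 read 7.670, 7.364 and 7.738. The controls read 7.743 to 7.909 by this measure, so replicate 5 lay only just below them. The part of cell numbers and RNA quality was not tested. The heme exporter Flvcr1 differed by -0.43 ± 0.18 and the transporter Abcg2 by -0.26 ± 0.11 at 0.1% (adjusted p = 0.487 and 0.497). Haptoglobin, Hp, differed by 0.19 ± 0.11 at 0.5% (adjusted p = 0.958).

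Other genes of iron uptake, storage and sensing numbered 20 on the list and 17 tested, with 8, 12 and 7 above control at the 3 doses and none called. Scara5, a receptor that takes up ferritin, read 7.53, 6.94, 6.67 and 6.63 in control, 8.09 and 7.53 at 0.5%, and 8.33 and 8.04 at 1.0%. Both 1.0% samples lay above every control, and the difference was 1.24 ± 0.25 (unadjusted p = 0.000188, adjusted p = 0.494). At 0.5% it was 0.87 ± 0.25 (adjusted p = 0.595), and at 0.1% -0.14 ± 0.22. Lcn2 differed by 2.25 ± 0.64 at 0.5% (adjusted p = 0.591), mostly through sample 1+2+3+6. Ncoa4, the receptor that brings ferritin to lysosomes, differed by -0.26 ± 0.10 at 0.1% (adjusted p = 0.471), and the mitochondrial iron importer Slc25a28 by 0.35 ± 0.17 (adjusted p = 0.559).

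The transcripts whose values ran most like those of a member were searched over 22791 probe sets with 1 gene, across the 11 RNA samples. With Hamp 1419196_at the closest were Ssbp2 (r = 0.915) and Erg (r = 0.892), and with Slc40a1 1417061_at they were Kif2a (r = 0.898) and Adh5 (r = 0.885). With Alas1 1424126_at they were Foxa1 (r = 0.885) and Lgr5 (r = 0.868). These are the highest of many correlations over few samples and are given as a description.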

How the data were processed

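RNA from mouse liver was read on 24 1-colour arrays. The table deposited by the authors gives the intensity of 45101 probe sets per array on a linear scale, and how they summarised and scaled it is not given in the sources used here. Array medians ran from 9.49 to 18.0, so the arrays were quantile-normalized, floored at 8 and log2-transformed, which understates changes of dim transcripts. The 64 control probe sets of the array were left out of all tests and the lowest 40% of the rest by mean signal too, which kept 27022. The platform annotation names 1 gene for 34958 probe sets, several for 932 and none for 9211. Promoters are from RefSeq, GRCm38.p6, matched by symbol for 6 of 8 measured members.

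Arrays with an SD of log2 differences under 0.08 over 1463 genes with a mean above 9 were taken as repeats. Sets were joined where their median difference over the 200 most variable genes with a mean above 7 was under 1.2 times that of the other genes (0.927 and 1.09, the next 1.32). Both limits were set with the data seen. Pairs joined this way had an SD of 0.108 to 0.137.

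limma 3.58.1 in R 4.3.3 (lmFit, eBayes with trend) was fitted over all 4 diets with 7 residual degrees of freedom, two-sided, after a test on simulated data. Other genes were named up to 4 a list by lowest p against control, except Lcn2, Dbp and the other acute phase genes shown beside a member. Members, lists and rules were chosen with earlier results of these data known. Replicate numbers do not pair the arrays by any label.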

Additional observations from a re-analysis of the deposited data

Results flagged for a closer look

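The lowest of the 4 control samples of Slc40a1 (1417061_at), control 6 at 10.50, stood apart from the others, with its gap to the next sample at 0.845 of the whole range; about 1 in 20 such groups shows this by chance. In the RNA that carries labels of 2 diets, which entered no comparison, all 4 arrays lay above every control sample for 3 member probe sets. Tfr2 read 11.92 on 1459994_x_at, against 11.63 to 11.71 in control, and 10.48 on 1425381_a_at, against 10.15 to 10.35. Alas2 read 9.98, against 9.45 to 9.82. Other tested probe sets went the opposite way, with all 4 arrays below every control sample. These were Slc40a1 1448566_at, at 8.47 against 8.66 to 9.09, and Slc39a14 1427035_at, at 8.58 against 8.75 to 9.07.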

How the results depend on the processing

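Member results numbered 102 (17 probe sets in 6 comparisons), each recomputed under up to 26 alternatives, 11 of which leave out 1 RNA sample. Of 2586 such values, 2434 kept the direction and 152, all of results with an unadjusted p of 0.05 or more, did not. The 15 results with an unadjusted p under 0.05 kept their direction in 384 of 384 values. They were picked by p from the same arrays that the alternatives reuse, so this gives no independent support. Among the values whose call did not change, 114 moved by at least 1 SD. A member became called in 27 values of 15 results, 26 of them with the 24 arrays counted as separate samples; Slc39a14 1438490_at was called at 1.0% against 0.1% with no joining by fingerprint (0.90, adjusted p = 0.0488). With the signals unscaled, the median of all probe sets at 1.0% against control was -0.31, beside -0.01.

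Counts of called probe sets are given for 0.1%, 0.5% and 1.0% against control, then 0.5% against 0.1%, 1.0% against 0.1%, 1.0% against 0.5%, the test over 4 diets and the slope. With all 24 arrays they were 4689, 805, 660, 6838, 3910, 1650, 8344 and 235, and with the replicate block 4844, 732, 559, 6891, 3983, 1569, 8328 and 86. The replicate block rests on a shared number only: same-numbered arrays deviated with r from -0.169 to 0.413 (3 of 36 over 0.1), and 4 of 24 arrays correlated best with their own number. With no joining by fingerprint they were 3, 30, 10, 34, 350, 9, 97 and 13. With no filter on low values they were 3, 74, 39, 75, 46, 82, 100 and 7, and with the floor at 32 they were 0, 17, 31, 14, 34, 35, 39 and 0. With the floor at 1 they were 1, 2, 2, 1, 1, 0, 1 and 0, and with 1 probe set a gene 3, 1, 2, 0, 2, 0, 2 and 0. Unscaled signals gave 0, 2, 0, 0, 0, 0, 1 and 2, and median centring gave 7 for the slope. Fits of the 2 diets alone gave 1 at 0.5% and 3 at 1.0%, and array weights 1 at 0.5%, 3 at 1.0% and 1 for the slope. Leaving out the lowest 60% gave 1 at 1.0% and 0 over 4 diets. Both keeping the RNA with labels of 2 diets (13 samples) and dropping the trend gave 0 at 0.1% and 0 over 4 diets. Leaving out 1 RNA sample gave 0 to 4, 0 to 7, 0 to 4, 0 to 11, 0 to 4, 0 to 4, 0 to 8 and 0 to 1 in the same order, with 5 at 0.5% without its sample 1+2+3+6 and 7 without its sample 4+5; the lone sample left is assumed to vary like the other groups. The cause of these moves was not tested, and 2 RNA samples at each of the higher doses limit every comparison.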
